A study of Mus musculus with 12 samples.

Results

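Expression of 8 ATP-binding cassette (ABC) transporter genes was measured in lymph node regulatory T cells of NOD mice with and without Drak2, the kinase encoded by Stk17b. They are the multidrug and lipid transporters Abcb1a, Abcb1b, Abcg1, Abcg2, Abca1, Abcc1, Abcc4 and Abcc5, and all 8 had 1 named row each among the 19505 genes measured. The set was chosen on the difference in Abcb1a and its chromosomal neighbour Abcb1b between these same arrays, so the genotype differences of all 8 genes are given as a description with no test. The arrays came from 6 NOD mice (replicates 1 to 6), whose strain is prone to autoimmune diabetes, and from 6 mice labelled NOD.Drak2-/- (replicates 1 to 5 and 7). Both groups shared the NOD background, female sex, an age of 4 to 8 weeks, and a sort of cells labelled CD4+ CD8- CD25+ CD45RBlo, and each array held cells of 1 mouse. The antibodies listed for the sort bind CD4, CD8 and CD45RB and none of them binds CD25, so the labels do not say how CD25+ cells were selected. The labels do not say how the Drak2 deletion was made or carried onto NOD.

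ABC transporters use the energy of ATP hydrolysis to move substrates across membranes, and most of those studied here pump them out of the cell. Abcb1a and Abcb1b are the rodent genes for P-glycoprotein, which expels a wide range of hydrophobic drugs and lipids, and they correspond to the single human gene ABCB1. In T cells, P-glycoprotein activity marks particular subsets by dye efflux and helps effector cells of the small intestine withstand bile acids. Abca1 and Abcg1 pass cholesterol to lipoprotein acceptors and are classic targets of the oxysterol-sensing liver X receptors (LXR).

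Abcb1a and Abcb1b are adjacent measured genes on chromosome 5, and the stretches just before their annotated starts are shown because they are the pair whose levels stood apart. The sequences are the 250 bases before each start on the plus strand of GRCm38.p6, from RefSeq, at chr5:8566841-8567090 for Abcb1a and chr5:8797897-8798146 for Abcb1b. Capitals mark matches on either strand to any of 6 motifs: the GC box GGGCGG, the CCAAT box CCAAT, the TATA box TATAAA, the E-box CACGTG, the AP-1 site TGANTCA and the nuclear receptor half-site AGGTCA.
Abcb1a: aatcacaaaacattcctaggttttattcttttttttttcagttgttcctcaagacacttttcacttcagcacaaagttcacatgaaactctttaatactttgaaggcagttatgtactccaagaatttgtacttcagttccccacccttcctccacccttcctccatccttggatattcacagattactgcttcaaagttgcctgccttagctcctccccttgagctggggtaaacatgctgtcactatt
Abcb1b: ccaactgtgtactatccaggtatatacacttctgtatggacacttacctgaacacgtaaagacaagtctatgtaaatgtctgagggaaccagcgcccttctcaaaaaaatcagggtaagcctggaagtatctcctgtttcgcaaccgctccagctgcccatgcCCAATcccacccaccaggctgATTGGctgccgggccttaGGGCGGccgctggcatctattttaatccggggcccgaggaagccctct
The Abcb1a window held 0 matches to the 6 motifs. The Abcb1b window held 2 CCAAT boxes, which begin 87 and 66 bases before the start, and 1 GC box, which begins 48 bases before it. The 2 windows also differed in composition, with 40.4% G and C for Abcb1a and 52.8% for Abcb1b. Among all 32851 RefSeq promoter windows of this length, 33.8% held a CCAAT box, 32.7% a GC box, 14% the half-site, 12.4% the TATA box, 6.75% the AP-1 site and 6.02% the E-box. A match describes letters only, since binding was not measured here. For each of the 2 genes 1 window was examined, at its annotated start, and whether these cells use that start was not tested. Windows were found for 6 of the 8 genes, 9 windows in all, and Abcg1 and Abcc1 had none. The Abca1 window held 2 GC boxes, 1 E-box and 1 TATA box, the last beginning 29 bases before the start.

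The cells carried the transcripts of regulatory T cells in both genotypes. Of 13 measured markers of this lineage, 12 lay above the brightest of the 23 background rows, which are probes with no target in the genome and averaged 5.87 (log2) at their brightest. These included the receptor genes Tnfrsf18 (10.57 in both genotypes) and Ctla4 (9.81 in NOD and 9.60 in NOD.Drak2-/-), and the transcription factor gene Ikzf2 (9.52 and 9.70). The interleukin 2 receptor alpha chain gene Il2ra (4.82 and 5.00) was in the background range, and Foxp3 was not analysed here. Among gate genes Cd4 averaged 9.67 and 9.87, Cd8a was in the background range (5.02 and 5.05), and Cd8b1 was above it (7.27 and 7.45). Stk17b kept a signal in both groups, from 10.21 to 10.80 in NOD and from 9.97 to 10.36 in NOD.Drak2-/-. These ranges overlap, and whether its probes lie inside the deleted stretch is unknown here, so Stk17b gives no check of the labels, and the NOD.Drak2-/- group is the 6 arrays that carry that label. The lists of other cell types were mostly in the background range, with 1 of 9 B cell markers, 0 of 11 myeloid and dendritic markers and 2 of 10 natural killer and cytotoxic markers above it. Above it were also 3 of 12 stromal and endothelial markers, Pecam1 (9.12 and 9.23), which leukocytes express too, Col1a1 (6.66 and 6.57) and Ccl21a (6.08 and 5.83), and 2 of 4 red blood cell and platelet markers, Itga2b (6.92 and 6.64) and Alas2 (5.85 and 5.93). These counts use the mean of all 12 arrays, and Alas2 in NOD and Ccl21a in NOD.Drak2-/- averaged below 5.87.

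Abcb1a, the main P-glycoprotein gene of many mouse tissue barriers, was higher in every NOD.Drak2-/- array than in any NOD array. In NOD, replicates 1 to 6 gave log2 values of 6.46, 7.57, 7.16, 5.99, 6.55 and 6.13. In the NOD.Drak2-/- group the values were 8.41, 7.84, 7.86, 9.02 and 8.27 for replicates 1 to 5 and 8.26 for replicate 7. NOD replicate 2 was the highest control and lay 0.28 below the lowest NOD.Drak2-/- array, while NOD.Drak2-/- replicate 4 was the highest of all. The means were 6.64 ± 0.61 (SD, n = 6) and 8.28 ± 0.43 (SD, n = 6), a log2 difference of 1.63 or 3.11-fold. Every array of both genotypes lay above the brightest background row of its own array, with NOD replicates 4 and 6 only just above it.

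Abcb1b, the second rodent P-glycoprotein gene, was higher in the same direction by a smaller amount. In NOD, replicates 1 to 6 gave log2 values of 5.77, 6.89, 5.95, 5.96, 6.43 and 5.12. In the NOD.Drak2-/- group they were 7.18, 6.88, 6.65, 7.30 and 6.89 for replicates 1 to 5 and 7.08 for replicate 7. The groups overlapped through 1 control, NOD replicate 2, which lay above NOD.Drak2-/- replicates 2 and 3. Of the 36 pairings of an array from each genotype, 34 had the higher value in NOD.Drak2-/-, beside 36 of 36 for Abcb1a. The means were 6.02 ± 0.60 (SD, n = 6) and 6.996 ± 0.23 (SD, n = 6), a log2 difference of 0.98 or 1.97-fold. In NOD, replicate 6 was below the brightest background row of its array, and the other 11 arrays were above theirs.

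**Figure D1:**
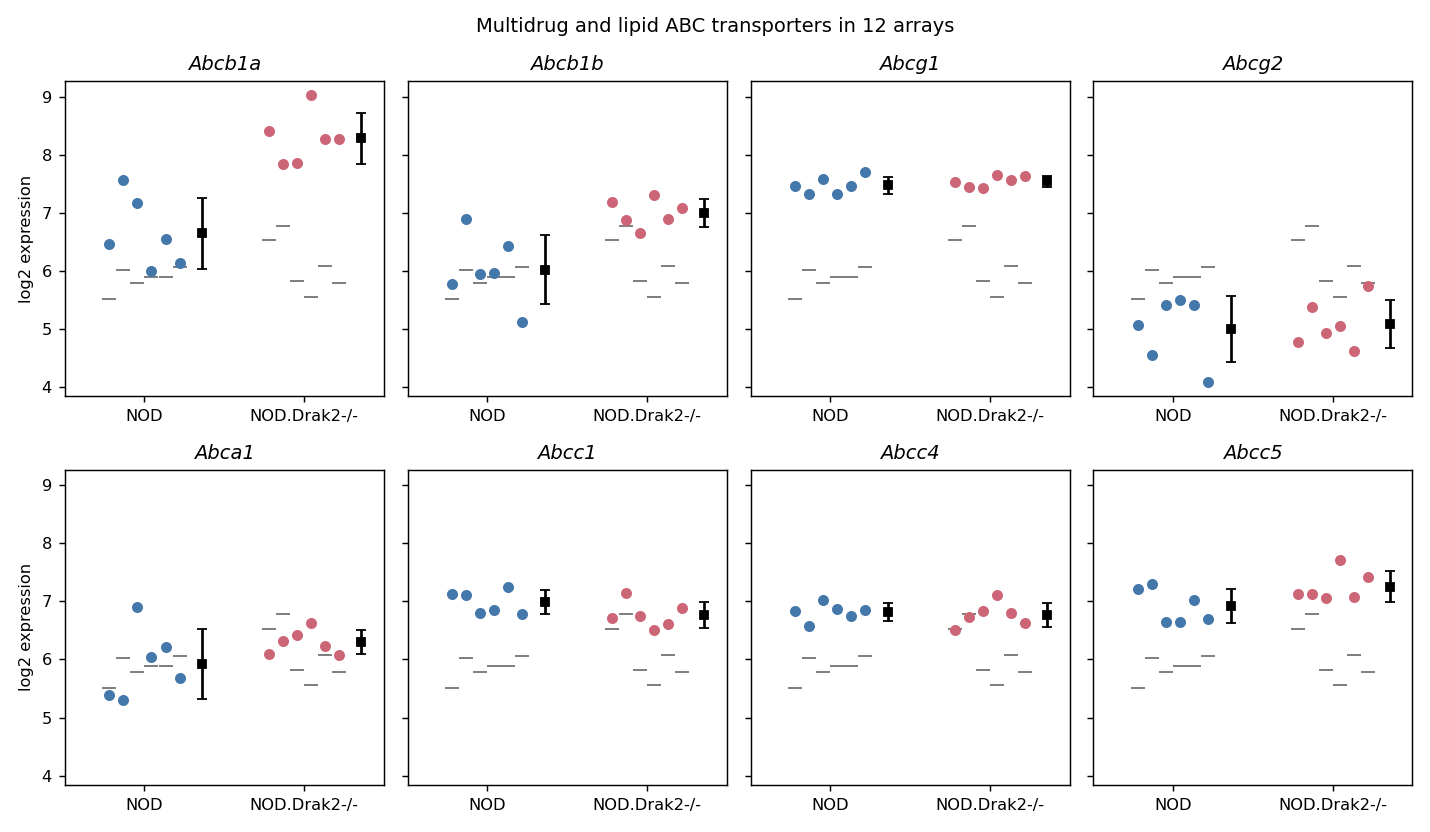
Log2 expression of the 8 transporter genes in each of 12 arrays, NOD in blue and NOD.Drak2-/- in red, ordered by replicate number within a group; black squares with bars are means ± SD (n = 6), and grey dashes mark the brightest background row of each array. For Abcb1a all 6 NOD.Drak2-/- arrays lie above all 6 NOD arrays, while the groups overlap for the other 7 genes.

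Without overlap between the groups stood 1 of the 8 genes, Abcb1a, which was higher in NOD.Drak2-/-. Over all genes the groups did not overlap for 0.513%, and 0.179% did so with NOD.Drak2-/- higher. Since Abcb1a helped to choose the set, nothing is read from that count.

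The cholesterol exporters differed less. Abca1, which loads cholesterol onto lipid-poor apolipoprotein A-I, ran from 5.30 to 6.91 (log2, median 5.86) in NOD and from 6.08 to 6.63 (median 6.28) in NOD.Drak2-/-. All 6 NOD.Drak2-/- arrays lay above the NOD mean, but none lay above NOD replicate 3, the highest control. The log2 difference was 0.37 or 1.30-fold, from 5.92 ± 0.60 to 6.30 ± 0.21 (SD, n = 6 per genotype). Without NOD replicate 3 the Abca1 difference was 0.57, and without NOD replicate 2 it was 0.25. Only 3 NOD and 4 NOD.Drak2-/- arrays exceeded their own brightest background row, so the Abca1 signal was not clear of background throughout. Abcg1, which supplies cholesterol to mature high-density lipoprotein, was well detected and steady. It ran from 7.32 to 7.70 (log2, median 7.46) in NOD and from 7.42 to 7.65 (median 7.55) in NOD.Drak2-/-, and the groups lay within each other. The log2 difference was 0.07, from 7.47 ± 0.15 to 7.54 ± 0.10 (SD, n = 6 per genotype).

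Abcg2, the breast cancer resistance protein that marks dye-excluding stem cells, was not above background. It ran from 4.09 to 5.49 (log2, median 5.24) in NOD and from 4.62 to 5.74 (median 4.99) in NOD.Drak2-/-, and 0 of 12 arrays exceeded their own brightest background row. Its log2 difference of 0.08 had no settled sign, since it was positive in 16 of 21 alternative settings.

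The 3 Abcc genes encode multidrug resistance proteins that export organic anions, and they did not share a direction. Abcc1 exports glutathione conjugates and leukotriene C4. It ran from 6.78 to 7.25 (log2, median 6.98) in NOD and from 6.51 to 7.14 (median 6.73) in NOD.Drak2-/-, and 5 of 6 NOD.Drak2-/- arrays lay below the NOD mean, with replicate 2 above it. The log2 difference was -0.22 (fold 0.859), from 6.99 ± 0.20 to 6.77 ± 0.22 (SD, n = 6 per genotype). Abcc5, an exporter of cyclic nucleotides and nucleotide analogues, ran from 6.65 to 7.30 (log2, median 6.86) in NOD and from 7.06 to 7.72 (median 7.13) in NOD.Drak2-/-. All 6 NOD.Drak2-/- arrays were above the NOD mean of Abcc5, and 2 of them, replicates 4 and 7, were above every NOD array. The log2 difference was 0.33 or 1.26-fold, from 6.92 ± 0.30 to 7.25 ± 0.26 (SD, n = 6 per genotype). Abcc4, which exports cyclic AMP and prostaglandins, ran from 6.57 to 7.02 (log2, median 6.85) in NOD and from 6.51 to 7.10 (median 6.76) in NOD.Drak2-/-. The groups of Abcc4 lay across each other, with a log2 difference of -0.05 that turned positive on median centring (0.01) and without NOD.Drak2-/- replicates 1 and 2 (0.02). In those 2 arrays Abcc4 was below the brightest background row, so it exceeded that row in 6 NOD and 4 NOD.Drak2-/- arrays.

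Set against the spread between arrays of 1 genotype, the differences varied in size. The log2 difference was 3.10 times the pooled SD for Abcb1a and 2.15 times for Abcb1b. It was 1.18 times the pooled SD for Abcc5 and 1.04 times, in the negative direction, for Abcc1 (-1.04). Abca1, Abcg1, Abcc4 and Abcg2 had ratios of 0.83, 0.56, -0.30 and 0.16. In NOD the SD of Abcb1b and of Abca1 was 0.60 each, against 0.23 and 0.21 in NOD.Drak2-/-. Whether the spread itself differs between the genotypes was not tested.

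The brightest background row ranged from 5.51 to 6.06 in NOD and from 5.55 to 6.77 in NOD.Drak2-/-, with NOD.Drak2-/- replicates 1 and 2 the highest. Without those 2 arrays the log2 difference was 1.71 for Abcb1a and 0.96 for Abcb1b. The natural killer and cytotoxic list, whose cells are known for P-glycoprotein activity, had a mean of 4.03 to 4.40 over the 6 NOD arrays and 4.17 to 4.67 over the 6 NOD.Drak2-/- arrays. On the mean of all 12 arrays its markers above background were Nkg7 (8.20 in NOD and 7.53 in NOD.Drak2-/-) and Eomes (5.84 and 6.26). In NOD, Eomes was below the 5.87 of the brightest background row. The others were in the background range on the mean of all 12 arrays, among them Gzma (3.31 and 3.91), Prf1 (5.54 and 5.89), Klre1 (2.82 and 3.14), Ncr1 (3.32 and 3.43) and Klrb1c (2.94 and 2.80). The NOD.Drak2-/- mean of Prf1 was just above 5.87. Of its 10 genes, 7 were higher in NOD.Drak2-/- and 3 lower. An unadjusted p under 0.05 in limma was found for 4, with Gzma, Klre1 and Eomes higher and Nkg7 lower in NOD.Drak2-/-, and 0 passed after adjustment. The same unadjusted count was 3 of 9 for the B cell list, 1 of them higher in NOD.Drak2-/-. The higher one was Cd79b (5.89 in NOD and 6.37 in NOD.Drak2-/-), the only B cell marker above background, and the 2 lower ones were in the background range. The count was 2 of 11 for the myeloid and dendritic list, 1 in each direction, and 0 for the stromal and the red blood cell lists. In all of these lists 0 passed after adjustment. Over all genes 9.43% had an unadjusted p under 0.05 and 0.0205% passed after adjustment. The B cell list averaged 4.86 to 5.17 and 4.72 to 5.54, and the myeloid and dendritic list 3.99 to 4.34 and 4.08 to 4.40. The stromal and endothelial list had a mean of 4.57 to 4.92 and 4.57 to 4.72, and the red blood cell and platelet list 5.38 to 5.76 and 5.31 to 5.57. With the B cell or the myeloid mean as a covariate the Abcb1a difference was 1.60 and 1.57. Only 1 of 9 and 0 of 11 markers of these lists were above background, so these covariates cannot show the part of those cells. The part of the natural killer, stromal and red blood cell lists in these differences was not tested. In bulk samples, more cells of a type with the transcript and more transcript per cell cannot be told apart.

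Whether Abcb1a and Abcb1b went together from array to array was tested within each genotype, and neither correlation passed after adjustment. Over the 6 NOD.Drak2-/- arrays Pearson's r was 0.87 (two-sided exact permutation p = 0.025, Benjamini-Hochberg adjusted p = 0.246) and Spearman's rho was 0.89 (exact permutation p = 0.0333, adjusted p = 0.233). Without replicates 2 and 4, the 2 arrays farthest from the median of Abcb1a, r was 0.93. Over the 6 NOD arrays r was 0.69 (exact permutation p = 0.132, adjusted p = 0.369) and rho was 0.54 (exact permutation p = 0.297, adjusted p = 0.694), and r was 0.49 without replicates 2 and 3. These belong to 14 relations, of Abcb1a with each other transporter in each genotype, and 0 of the 14 passed an adjusted p of 0.05. With 6 arrays the smallest exact permutation p of Spearman's rho is 0.00278. A single relation among the 14 could thus pass by rho only with a perfect order, and weaker relations would be missed. At an unadjusted exact permutation p under 0.05, Pearson's r picked 2 of the 14, Abcb1b and Abcg1, both in NOD.Drak2-/-. Spearman's rho also picked 2, Abcb1b and, in the negative direction, Abcc1, in the same group. For Abcg1 and Abcb1a in NOD.Drak2-/-, r was 0.83 (exact permutation p = 0.0417, adjusted p = 0.246), rho was 0.71 (exact permutation p = 0.136, adjusted p = 0.635) and r without replicates 2 and 4 was 0.74. In NOD its r was -0.21. For Abcc1 and Abcb1a in NOD.Drak2-/-, rho was -0.89 (exact permutation p = 0.0333, adjusted p = 0.233) and r was -0.74 (exact permutation p = 0.0958, adjusted p = 0.335), which rested on replicates 2 and 4, without which r was -0.10. The 2 P-glycoprotein genes are close paralogs, and whether the probes of one row also bind RNA of the other was not tested.

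**Figure D2:**
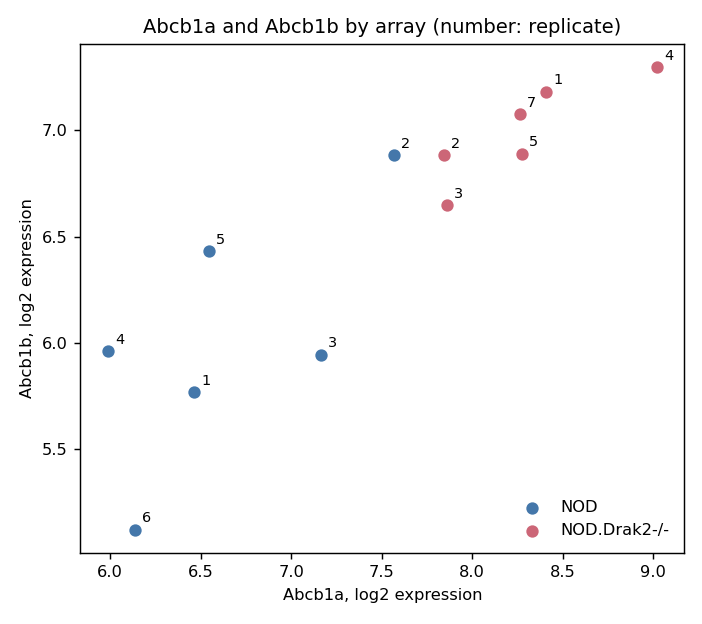
Log2 expression of Abcb1a (x axis) against Abcb1b (y axis), 1 point per array with its replicate number, NOD in blue and NOD.Drak2-/- in red. The 6 NOD.Drak2-/- points give r = 0.87 and the 6 NOD points 0.69, neither passing after adjustment, NOD replicate 2 lies next to the NOD.Drak2-/- points, and NOD replicate 6 has the lowest Abcb1b.

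After each genotype's mean was subtracted, the 12 arrays gave r = 0.71 between Abcb1a and Abcb1b and 0.61 between Abcb1a and Abcc5. These placed Abcb1b at rank 254 and Abcc5 at rank 803 among all other genes ordered by this correlation. The 5 genes most like Abcb1a by the same measure were Dmgdh (r = 0.91), Bloc1s3 (0.91), Alppl2 (0.89), Psg18 (0.88) and Wap (0.88). They are given as a description, as the highest of 19505 correlations. Of the 5, Bloc1s3 (6.97 in NOD and 6.72 in NOD.Drak2-/-) was above background, and each of the 5 had a negative genotype difference, from -0.28 to -0.13 (log2).

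None of the genes measured beside the Abcb1a and Abcb1b pair passed the test. Of the 10 measured genes on each side, 20 in all, 0 passed an adjusted p of 0.05 in limma and 0 had an unadjusted p under 0.05, where 0.0205% of all genes passed the first and 9.43% the second. Abcb4, the phosphatidylcholine transporter of bile and the closest relative of the pair, is the next gene after Abcb1b and was in the background range, with log2 means of 3.42 in NOD and 3.52 in NOD.Drak2-/- (difference 0.10, limma adjusted p = 0.755). Beyond it, Crot, a peroxisomal carnitine acyltransferase gene, averaged 7.64 and 7.58 (difference -0.06, limma adjusted p = 0.939), and Tmem243 averaged 7.61 and 7.63 (difference 0.02, limma adjusted p = 0.955); the sign of both turned in some alternatives. Before Abcb1a, the log2 difference was 0.30 for Rundc3b (limma adjusted p = 0.725), -0.06 for the mitochondrial carrier gene Slc25a40 (0.955), a sign that 6 of 22 alternatives turned, and -0.43 for Dbf4 (0.535), which activates the replication kinase Cdc7. Leaving out 1 array moved the Rundc3b difference to between 0.14 (without NOD replicate 4) and 0.52 (without NOD replicate 5), and the Dbf4 difference to -0.23 without NOD.Drak2-/- replicate 2. On the mean of all 12 arrays Rundc3b and Dbf4 were in the background range, as were 15 of the 20 neighbours. The median log2 difference of the 20 was -0.04, beside -0.02 over all genes.

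**Figure D3:**
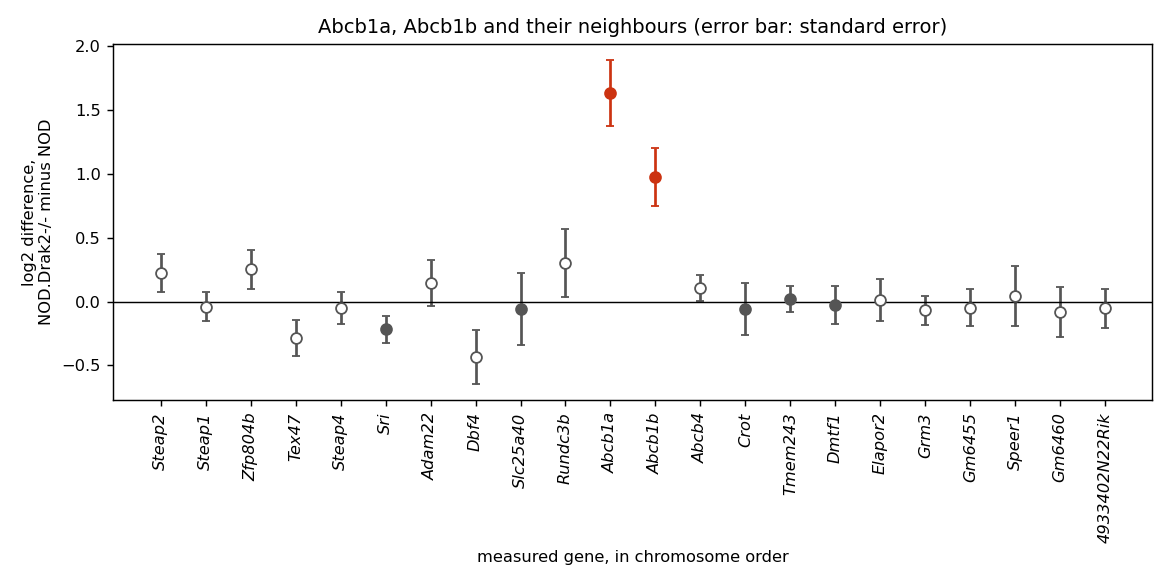
Log2 difference of NOD.Drak2-/- minus NOD (y axis) for Abcb1a and Abcb1b (red) and the 10 measured genes on each side (grey), in chromosome order; bars are the standard error of the limma fit and open points are genes in the background range. The neighbours lie between -0.43 and 0.30, and the pair lies at 1.63 and 0.98.

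The rest of the ABC family was measured on 43 genes, covering the lipid transporters of the Abca group, the bile salt, mitochondrial and peptide carriers of the Abcb and Tap group, further Abcc and Abcg pumps, the peroxisomal Abcd genes and the Abce and Abcf proteins of translation. Of these, 0 passed an adjusted p of 0.05 in limma in either direction (0.0205% of all genes passed), and 5, or 11.6%, had an unadjusted p under 0.05, beside 9.43% of all genes. Their log2 differences ran from -0.39 to 0.46 with a median of -0.03, and 19 were positive and 24 negative. Only 14 of the 43 were above background. The smallest p-values belonged to Abcd3, a peroxisomal fatty acyl-CoA importer gene (3.31 and 3.66, difference 0.35, limma adjusted p = 0.471), which was in the background range, and to Abcb9, a lysosomal peptide transporter gene (7.20 and 6.89, difference -0.31, limma adjusted p = 0.483). The other 3, named after their values were seen, were Abcb5 (difference 0.35) and Abcg5 (-0.29), both in the background range, and the translation factor gene Abcf1 (8.29 and 8.69, difference 0.41, limma adjusted p = 0.52). The antigen-processing transporter genes Tap1 (9.64 and 9.65) and Tap2 (7.41 and 7.30) differed by 0.01 and -0.11, with limma adjusted p-values of 0.973 and 0.84, and the sign of Tap1 turned in 4 of 22 alternatives.

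**Figure D4:**
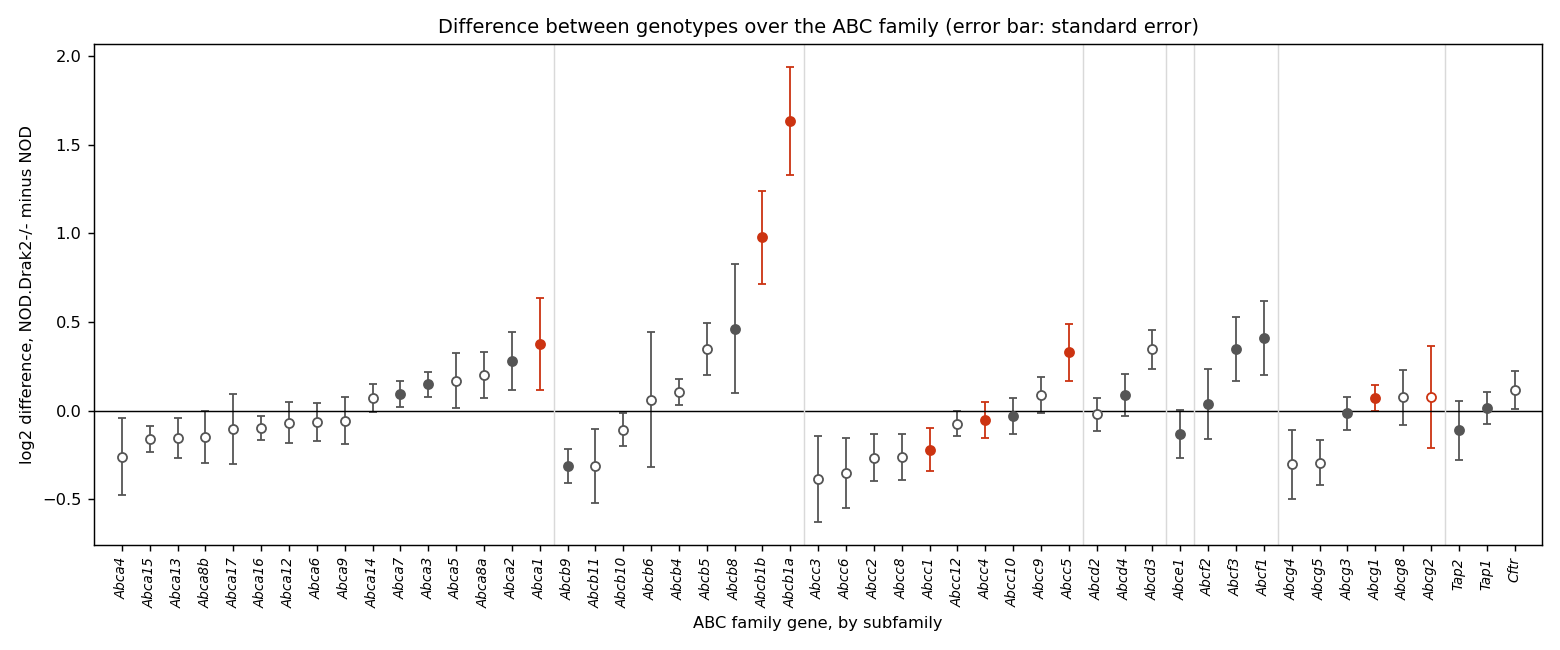
Log2 difference of NOD.Drak2-/- minus NOD (y axis) for the 8 transporters (red) and 43 other ABC family genes (grey), grouped by subfamily; bars are the standard error from the SDs of both groups (n = 6 each) and open points are genes in the background range. The 43 other genes lie between -0.39 and 0.46, while Abcb1a is at 1.63 and Abcb1b at 0.98.

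None of the listed genes that work with these transporters passed the test. Of 18 measured genes of cholesterol efflux and the LXR response, 0 passed in limma over all genes and 3 (16.7%) had an unadjusted p under 0.05, where the shares of all genes were 0.0205% and 9.43%. These were Pltp, the phospholipid transfer protein gene (4.16 in NOD and 3.65 in NOD.Drak2-/-, difference -0.51, limma adjusted p = 0.416), Npc1, a gene of lysosomal cholesterol export (4.82 and 5.28, difference 0.47, limma adjusted p = 0.481), and, named after its values were seen, the LXR target Mylip (9.58 and 10.01, difference 0.43, limma adjusted p = 0.481). Pltp and Npc1 were in the background range. The list had a median difference of -0.08.

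Of 17 xenobiotic receptor and other drug handling genes, 0 passed and 2 (11.8%) had an unadjusted p under 0.05, beside 0.0205% and 9.43% of all genes, and the median difference was -0.05. Slco3a1, an organic anion transporter gene, averaged 7.53 ± 0.17 in NOD and 8.00 ± 0.30 in NOD.Drak2-/- (SD, n = 6 per genotype; difference 0.47, limma adjusted p = 0.469), and its groups did not overlap, as was so for 0.179% of all genes in that direction. Cyp3a11, a drug-metabolizing cytochrome P450 gene, was in the background range (difference 0.24, limma adjusted p = 0.518). Of 23 glutathione and leukotriene genes, some of which make substrates of Abcc1, 0 passed, and their median difference was -0.03. An unadjusted p under 0.05 was found for 1 of them (4.35%, beside 9.43% of all genes). That gene, Gclc, encodes the catalytic subunit of the rate-limiting enzyme of glutathione synthesis, and averaged 7.66 ± 0.16 and 8.02 ± 0.08 (SD, n = 6 per genotype; difference 0.36, limma adjusted p = 0.444), also with no overlap between the groups. Nfe2l2, the transcription factor NRF2, differed by -0.25 in the background range (limma adjusted p = 0.543).

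Of 20 cyclic nucleotide and prostanoid genes, which make, break down or respond to substrates of Abcc4 or Abcc5, 0 passed, beside 0.0205% of all genes. Their median difference was 0.06, and 2 (10%) had an unadjusted p under 0.05, close to the 9.43% of all genes. They were the phosphodiesterase gene Pde3b (6.86 and 7.34, difference 0.49, limma adjusted p = 0.504) and the protein kinase A regulatory subunit gene Prkar2a (5.60 and 6.03, difference 0.43, limma adjusted p = 0.504). On the mean of all 12 arrays Prkar2a was in the background range, but its NOD.Drak2-/- mean was above the 5.87 of the brightest background row. Of 15 transcription factor genes known to act on Abcb1 genes or considered for it, 0 passed and 3 (20%, beside 9.43% of all genes) had an unadjusted p under 0.05, with a median of 0.03. These were Cebpb (5.61 and 5.21, difference -0.40, limma adjusted p = 0.469), in the background range, Runx3, known for driving cytotoxic T cell genes (8.38 and 8.90, difference 0.52, limma adjusted p = 0.483), and, named after its values were seen, Fos (7.80 and 8.24, difference 0.44, limma adjusted p = 0.527).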

How the data were processed

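Expression was measured in sorted regulatory T cells of 12 mice on 12 arrays of 1 colour, from 125 ng of RNA each. The authors' deposited table holds log2 values; the submitters' processing notes name RMA and oligo without a version. No counts underlie array values, so the number of arrays limits the precision. Of 29129 rows, 19572 had 1 symbol in the platform annotation, and the brightest row per gene was kept. The genome build of the rows was not stated, so gene order and promoter sequences come from RefSeq (GRCm38.p6), whose promoter windows are the only coordinates printed. The genotypes were compared in R 4.3.3 with limma 3.58.1 (lmFit, eBayes, no covariate, no filter on dim genes) and Benjamini-Hochberg adjustment over all genes. Correlations used all 720 pairings of 6 arrays. The limma step was tested on simulated data. It recovered 36% of genes changed by 0.5 (log2), 90% of those changed by 1 and 100% of those changed by 2, and 8 of 169 calls were false. The simulated data gave 169 calls and the real data 4, and with fewer calls a gene needs a smaller unadjusted p to pass. Recovery in the real data was thus probably lower than these shares. A gene that differs by 0.5 or less, or by 1, could often be missed.

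The 8 transporters and all lists were chosen with earlier results of these data known. Named are the 8 genes; of each list the genes past the threshold, otherwise the 2 of smallest p; the 3 measured genes on each side of the pair; the 5 genes most like Abcb1a; Tap1, Tap2 and Stk17b. The rule also covers all regulatory T cell and gate genes, which are summarised by counts and examples. Alternatives were median centring, quantile normalization, leaving out dim genes, another row per gene, trend and robust eBayes, array weights, a replicate block, B cell or myeloid covariates, leaving out each array, and, added after the data had been seen, leaving out 2 NOD.Drak2-/- arrays.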

Additional observations from a re-analysis of the deposited data

How the results depend on the processing

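Over 22 alternatives the log2 difference stayed positive for Abcb1a (1.49 to 1.82) and Abcb1b (0.78 to 1.15), and moved by less than 1 pooled SD. Since its groups do not overlap, leaving out arrays could not turn the sign of Abcb1a. Leaving out dim genes, another row per gene, and trend and robust eBayes could not move these differences, yet they are among the alternatives counted. Each transporter gene has 1 named row, and the other steps leave the fitted difference of a gene as it is. Abcg1, Abca1, Abcc1 and Abcc5 kept their sign in all 22, Abcc4 in 20 of 22 and Abcg2, left out with the dim genes, in 16 of 21. Over all genes 4 passed in limma, 0 with the replicate block, 1 with the B cell and 1 with the myeloid covariate, 2 without NOD.Drak2-/- replicates 1 and 2 together (an alternative added after seeing the data), and 1 to 2 when any 1 of the 12 arrays was left out. Of the other ABC family genes and of the listed genes 0 passed in any fit, with 2 to 7 and 5 to 19 at an unadjusted p under 0.05. With the replicate block the difference was 1.54 for Abcb1a and 0.78 for Abcb1b. The deviations of same-numbered arrays correlated at r from -0.18 to 0.09, within the range of other pairs (-0.38 to 0.22). Whether a shared number stands for a shared day or batch was not tested. Without the 2 arrays farthest from the Abcb1a median, its correlation with Abcb1b was 0.49 in NOD and 0.93 in NOD.Drak2-/-. Abca1, Abcg2, NOD values of Abcb1b and 2 NOD.Drak2-/- values of Abcc4 lie at or near background, which limits what their differences show.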
